A study of Heterocephalus glaber and Mus musculus with 6 samples.

Results

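The genes described here encode collagens, the metalloproteases of the Adam, Adamts and Mmp families, the Timp inhibitors and the pappalysins Pappa and Pappa2, in epidermal keratinocytes of FVB mice. They were chosen by symbol: 130 genes of the GENCODE vM21 annotation (GRCm38) matched the naming patterns of these families, among 42319 mouse identifiers in the tables that have a symbol of their own. Keratinocytes are the main cells of the epidermis. They were obtained from dorsal skin of mice aged 7 to 8 weeks, in a homeostatic state and with no treatment or altered gene named in the labels. The epidermis was freed with dispase, dissociated, and sorted for CD49f, the integrin alpha-6 of basal keratinocytes. There were 3 mouse libraries of one kind, so values are given per library with their spread, and no test between conditions exists for these genes. The labels do not say that the libraries came from separate animals, so the spread may be partly technical.

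Collagens are trimeric proteins built around a triple helix and form the fibres of the dermis, the network of the basement membrane under the epidermis, and the fibrils that anchor one to the other. Mmp enzymes cleave matrix proteins and cell-surface proteins, Adam enzymes release the outer parts of membrane proteins such as growth factor precursors, and Adamts enzymes are secreted proteases that process procollagens, proteoglycans and fibrillin-associated proteins. Timp proteins inhibit many of these enzymes. In skin they act in wound closure, hair cycling and the turnover of the basement membrane.

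The coding sequences show what sets each class apart, and they are given for genes whose levels the results turn on. The stretches below are from GENCODE vM21 transcripts on GRCm38, 5′ to 3′ on the coding strand, taken from the longest coding sequence of each gene. In the proteases the capitals mark the codons of the zinc-binding consensus, the 3 histidine codons and the glutamate codon that follow each other at fixed spacing over 33 bases.
Mmp28, chr11:83444921-83444953, minus strand: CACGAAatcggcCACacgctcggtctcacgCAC
Mmp15, chr8:95368585-95368617, plus strand: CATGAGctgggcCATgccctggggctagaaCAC
Mmp17, chr5:129596597-129596629, plus strand: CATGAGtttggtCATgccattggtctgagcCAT
Mmp3, chr9:7449775-7449807, plus strand: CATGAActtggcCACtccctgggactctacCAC
Adam9, chr8:24990326-24990358, minus strand: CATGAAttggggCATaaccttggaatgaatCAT
Adam8, chr7:139987893-139987925, minus strand: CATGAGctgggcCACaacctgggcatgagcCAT
Pappa, chr4:65180920-65180952, plus strand: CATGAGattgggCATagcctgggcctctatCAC
Adamts9, chr6:92905285-92908493, minus strand, across an intron: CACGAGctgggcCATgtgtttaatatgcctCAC
Adamts5, chr16:85878015-85887826, minus strand, across an intron: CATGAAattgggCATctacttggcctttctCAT
This spacing of codons was found in 22 of 23 Mmp genes, 20 of 33 Adam genes and 19 of 24 Adamts and Adamtsl genes, against 0.438% of all protein-coding genes. The 5 without it in the last group were the 5 Adamtsl genes, which encode Adamts-like proteins with no protease domain. Among measured genes, Adamtsl5 and Adam4 had no match.

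In the collagens the capitals mark the glycine codons (GGN), which come once in every 9 bases of the triple helix. The first 63 bases of the longest such run that lie in 1 exon are shown for the collagens described most fully below.
Col6a3, chr1:90789031-90789093, minus strand: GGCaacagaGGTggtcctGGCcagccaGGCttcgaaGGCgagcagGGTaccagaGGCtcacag
Col4a2, chr8:11429447-11429509, plus strand: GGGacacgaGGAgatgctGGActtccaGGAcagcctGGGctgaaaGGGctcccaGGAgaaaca
Col4a1, chr8:11247033-11247095, minus strand: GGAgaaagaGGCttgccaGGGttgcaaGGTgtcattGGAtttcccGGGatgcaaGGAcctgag
Col8a1, chr16:57628030-57628092, minus strand: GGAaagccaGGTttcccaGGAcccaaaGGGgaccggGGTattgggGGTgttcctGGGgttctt
All 44 collagens had 20 or more such codons in an unbroken run, against 0.292% of protein-coding genes, collagens included. The longest run had 45 units in Col6a3, 66 in Col4a2, 40 in Col4a1 and 61 in Col8a1, and 338 in Col5a1 and Col11a2, whose long unbroken helix is typical of fibril-forming collagens. Of 1916 inner coding exons of collagens, 63.9% had a length that is a multiple of 9 bases, against 14.3% over all protein-coding genes, and 469 were 54 bases long.

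The 3 libraries held 52499080, 53465434 and 52970733 counts, of which 10.6% to 11.5% lay in rows with an Ensembl identifier. The other counts lay in assembled loci that carry no gene name. Reads of a gene with no row of its own may lie there, which could not be checked. A level below is therefore the level of a gene's own row and may leave out reads of that gene. Of the 20 basal keratinocyte markers listed, 4 had a row, and all 4 were measured. Among them Itga2, a collagen-binding integrin subunit, had 48.3 ± 5.58 CPM (SD, n = 3). The others were lower, with 8.57 ± 2.78 CPM for Ass1, 0.851 ± 0.339 for Syt8 and 0.642 ± 0.138 for Igfbp2. Krt5, Krt14 and Itga6 had no row and give no check of cell identity. Of the 20 fibroblast markers listed, which do not include collagens, 17 had a row, 8 of these were at 0 in all libraries, among them Lum, Pdgfrb, Dpt, Mfap5 and Fbn1, and the summed level ranged from 23.8 to 32.3 CPM. Of 15 endothelial markers 13 had a row, with sums from 2.64 to 3.31 CPM. Cdh5, Kdr, Emcn and Tie1 were at 0, and 4 were measured: Flt1 with 129, 105 and 63 counts, Plvap with 3, 30 and 40, Vwf with 25, 24 and 14, and Pecam1 with 10, 14 and 11.

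Of the 130 genes, 98 (75.4%) had a row, where 66.6% of the 21894 protein-coding genes did. A gene was called measured at a mean of 10 or more counts over the 3 libraries. That held for 40 of the 98 rows (40.8%), and for 45.2% of the rows of all protein-coding genes. A further 19 had a lower mean above 0, and 39 (39.8% of rows, against 41.5% of the rows of protein-coding genes) were at 0 in all 3 libraries. A count of 0 allows up to 3 counts, or 0.0561 to 0.0571 CPM in these libraries, by counting error alone. The genes nearest the minimum were Col2a1, with 9, 4 and 18 counts in libraries 1, 2 and 3, on the upper side and Adamts12, with 12, 14 and 0 counts, on the lower side.

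**Figure D1:**
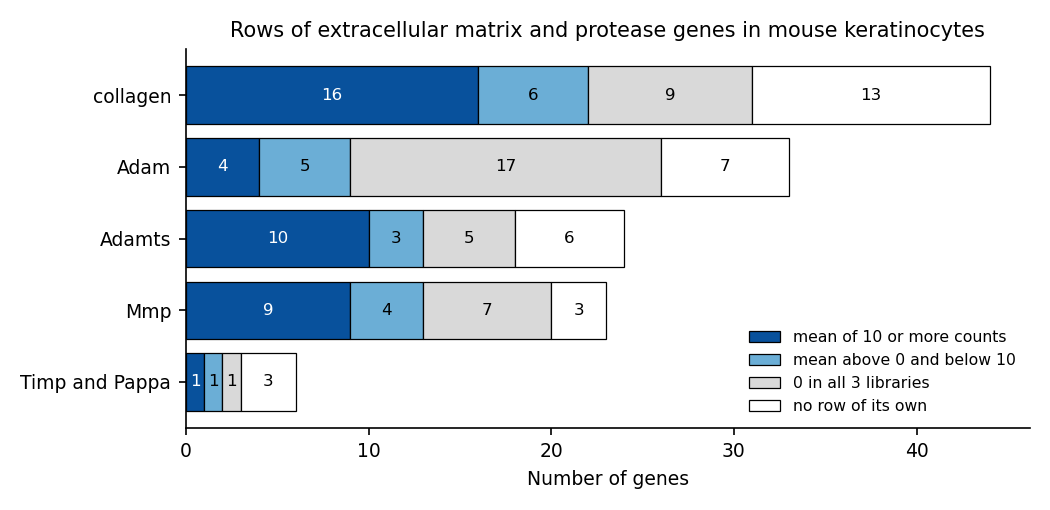
Bars give the number of genes in each family by the state of their row in the mouse tables: measured at a mean of 10 or more counts, above 0 but lower, at 0 in all 3 libraries, or with no row. Adam genes had 17 rows at 0 and 4 measured genes, and 13 of 44 collagens had no row.

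The 32 genes with no row include many that textbooks place in skin, and they were not analysed here. Among collagens they are Col1a1, Col1a2 and Col3a1 of the dermal fibres, Col7a1 of the anchoring fibrils, Col17a1 of the hemidesmosome, Col4a5 and Col4a6 of the basement membrane, Col6a1, Col10a1, Col12a1, Col16a1, Col18a1 and Col23a1. Among proteases they are the sheddases Adam10 and Adam17, Adam1a, Adam1b, Adam15, Adam19 and Adam22, Adamts1, Adamts4, Adamts7, Adamts14, Adamtsl1 and Adamtsl4, and Mmp2, Mmp14 and Mmp19. The inhibitors Timp1, Timp2 and Timp3 also had no row, so of the Timp family only Timp4 could be read, at 0, 0 and 2 counts.

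Collagens with a row summed to 117 ± 14.2 CPM (SD, n = 3), Mmp genes to 101.6 ± 3.72, Adam genes to 56.5 ± 1.57, Adamts and Adamtsl genes to 48.4 ± 2.72, and Pappa, Pappa2 and Timp4 to 4.05 ± 2.50 CPM. Each sum rested on few genes. Col6a3, Col4a2 and Col4a1 made up 82.1% of the collagen sum, Mmp28 and Mmp15 92.9% of the Mmp sum, Adam9 and Adam8 95.4% of the Adam sum, and Adamtsl5 alone 80.2% of the Adamts sum. CPM is the count per 1000000 counts of a library and grows with transcript length, so genes are compared below in CPM per kilobase of merged exon. The median of the 40 measured genes was 0.149 CPM per kilobase, and that of the 6595 measured protein-coding genes was 2.11. Only 7 of the 40 lay above it: Mmp28, Adam9, Adamtsl5, Mmp15, Col6a3, Col4a2 and Adam8. Genes with no row, Krt5 and Krt14 among them, are not in this reference. The shares of measured protein-coding genes given below therefore rank rows only and are no rank among all genes of these cells.

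Mmp28, which encodes epilysin, a secreted metalloprotease known from basal keratinocytes, had the highest level of all measured members. It had 3329, 3429 and 3302 counts in libraries 1, 2 and 3, or 16.3 ± 0.234 CPM per kilobase (SD, n = 3), above 99.9% of measured protein-coding genes. The 3 libraries lay close together, within a factor of 1.03. Its exons (chromosome 11, 83440768 to 83463071, ENSMUSG00000020682) share 466 bases with a gene on the opposite strand, 1700020L24Rik, which had 373, 373 and 369 counts.

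Mmp15, a membrane-anchored matrix metalloprotease, followed among the Mmp genes with 1506, 1843 and 1599 counts, or 5.77 ± 0.556 CPM per kilobase. Mmp17, which is held at the membrane by a lipid anchor, had 235, 240 and 230 counts, or 0.670 ± 0.0123 CPM per kilobase, and the libraries differed by a factor of 1.03. The ratio of Mmp15 to Mmp17 per kilobase was 7.86, 9.42 and 8.53 in libraries 1, 2 and 3. The stromelysin gene Mmp3, whose product degrades many matrix proteins, had 64, 53 and 34 counts. At 0.528 ± 0.161 CPM per kilobase it overlapped Mmp17 in its range over libraries. Mmp11, another stromelysin, had 31, 28 and 22 counts. Its exons share 155 bases with Chchd10 on the opposite strand, which had 92, 56 and 65 counts.

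The remaining measured Mmp genes rested on few counts. Mmp21 had 12 counts in each library. Mmp23 had 2, 14 and 17 counts and Mmp24, a membrane-type enzyme, had 10, 42 and 14, each with libraries at least 4-fold apart. Exons of Mmp24 share 637 bases with BC029722 on the opposite strand, which had 375, 297 and 323 counts. Mmp12, the macrophage elastase, had 0, 0 and 37 counts, so its mean of 12.3 counts passed the minimum through library 3 alone. A bound for counting error alone takes the 37 counts as exact and 3 counts as the limit of each other library. On that basis library 3 was at least 12.2-fold higher. The bound rests on the value that took Mmp12 past the minimum and covers no other origin of a 0. The count of 37 itself has an exact 95% Poisson interval of 26.1 to 51.0. The summed level of the 8 leukocyte markers with a row was 3.14, 2.77 and 5.66 CPM in libraries 1, 2 and 3. Of the 6 measured, 4 were highest in library 3: Lyz2 with 0, 0 and 59 counts, Itgam with 78, 48 and 105, Ptprc with 24, 41 and 48, and Cd3g with 6, 29 and 37. The macrophage gene Aif1, with 23, 8 and 9 counts, and Trdc, with 28, 18 and 23, were highest in library 1. Csf1r, Cd68 and Cd207 had no row. Their part in the Mmp12 value was not tested.

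Most measured Mmp genes carry a furin-type motif ahead of the catalytic site. This motif, an arginine, any residue, a lysine or arginine and a second arginine, is where proprotein convertases activate such enzymes inside the cell. It was looked for in the coding sequence from 180 to 90 codons before the zinc-binding site, a window set after the data had been seen. It was in 10 of the 22 Mmp genes with that site, against 4.95% of windows of that length over all protein-coding genes. Of the 9 with a row, 7 were measured (Mmp28, Mmp15, Mmp17, Mmp11, Mmp21, Mmp23 and Mmp24), and Mmp16 and Mmp25 were at 0. Of the 11 with a row but no motif found, 2 were measured (Mmp3 and Mmp12), 4 had lower counts and 5 were at 0. The last include Mmp1a, which has no match to the zinc-binding site and so was not searched. Among Adamts and Adamtsl genes the motif was in 16, and 8 of the 13 with a row were measured, against 2 of 5 without it. Among Adam genes it was in 6, and 2 of the 3 with a row were measured, against 2 of 23 without it. In both families genes with no zinc-binding site were not searched and are counted as without the motif. The Mmp counts are a description of 20 genes, and none of these counts was tested.

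Genes of the chromosome 9 cluster of secreted Mmp genes were low. The 10 members between 7272514 and 7699585 include the collagenases Mmp1a, Mmp1b, Mmp8 and Mmp13, the stromelysins Mmp3 and Mmp10, matrilysin Mmp7, enamelysin Mmp20, Mmp12 and Mmp27. Mmp13 had 9, 0 and 0 counts, Mmp1b 3, 0 and 3, and Mmp27 3, 0 and 0. Mmp1a, Mmp7, Mmp8, Mmp10 and Mmp20 were at 0 in each library. The gelatinase Mmp9, on chromosome 2, had 4, 0 and 12 counts.

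**Figure D2:**
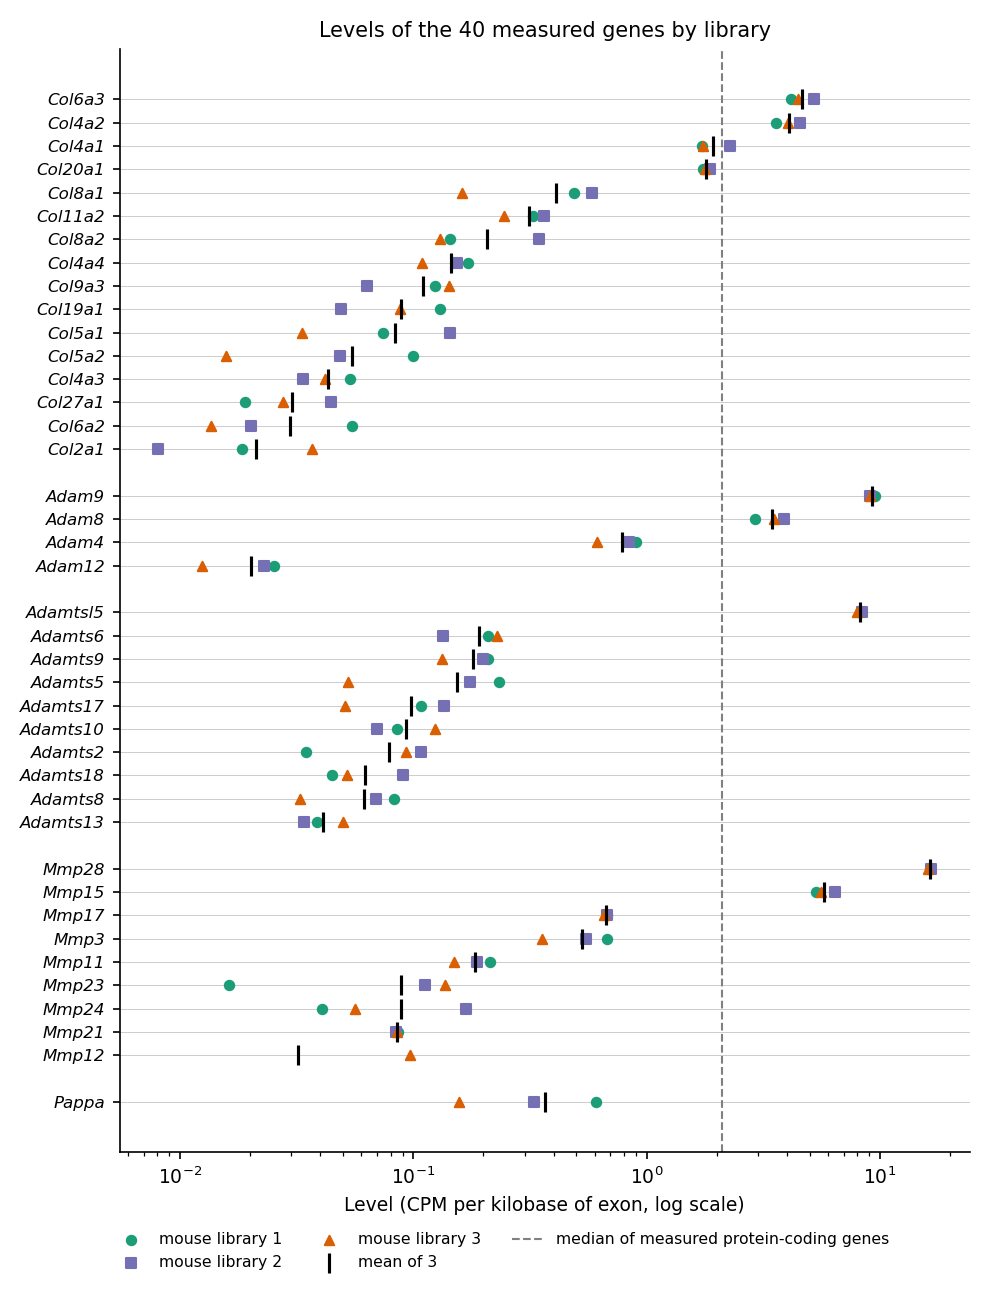
Points give the level of each of the 40 measured genes in each mouse library, in CPM per kilobase of exon on a log axis, black bars the mean of 3, and the dashed line the median of 6595 measured protein-coding genes (2.11). Most genes lie well left of that line, Mmp28 lies farthest right, and Mmp12 has a point for library 3 alone because the others were at 0.

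Adam9, a membrane-bound sheddase and adhesion protein of keratinocytes, had 2053, 1993 and 1975 counts. Its level of 9.21 ± 0.256 CPM per kilobase (SD, n = 3; chromosome 8, 24949611 to 25016927) was above 97.2% of measured protein-coding genes. Adam8, a sheddase better known from leukocytes, had 711, 962 and 865 counts, or 3.44 ± 0.485 CPM per kilobase. Library 1 was the lowest of the 3 for Adam8 and the highest for Adam9. Beside this, the leukocyte markers summed to 3.14, 2.77 and 5.66 CPM, and their part in the Adam8 level was not tested.

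Adam4, an Adam gene known from the male germ line, had 118, 113 and 81 counts, or 0.784 ± 0.153 CPM per kilobase. Its coding sequence has no zinc-binding consensus. It lies inside Cox16 on the same strand, without shared exon bases, and Cox16 had 407, 531 and 373 counts. Gm20498, which spans Adam4 on the same strand too, had 300, 221 and 236 counts. Adam12, whose product takes part in cell fusion and shedding, had 14, 13 and 7 counts.

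Most other Adam rows were at 0, and many of these belong to the testis. Coding sequences that lie in 1 exon, as in many germ-line Adam genes, were found for 15 Adam genes. Of the 13 with a row, 10 were at 0, Adam21 (7, 6 and 0 counts) and Adam30 (9, 6 and 6 counts) were below the minimum, and Adam4 was measured. Of the 13 other Adam genes with a row, 7 were at 0, 3 were below the minimum and 3 were measured. On chromosome 8, Adam18, Adam3 and Adam5, with sperm proteins as their products, were at 0, Adam32 had 0, 18 and 0 counts, and Adam9 followed next to Adam32 on the same strand. The catalytically inactive neuronal genes Adam11 and Adam23 had 6, 0 and 0 counts and 0, 5 and 8 counts.

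Adamtsl5, a secreted Adamts-like protein that binds microfibrils, had 2062, 2108 and 1993 counts, or 8.21 ± 0.212 CPM per kilobase (chromosome 10, 80339110 to 80348412, ENSMUSG00000043822). The libraries lay within a factor of 1.05, and the level was above 95.1% of measured protein-coding genes. Its level was below that of Adam9 in each library. All 9 measured Adamts proteases were far lower, at 0.191 CPM per kilobase or less.

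Among these proteases Adamts6 had 86, 56 and 94 counts and Adamts9, a proteoglycan-cleaving enzyme, had 166, 160 and 106. Their levels of 0.191 ± 0.0496 and 0.181 ± 0.0417 CPM per kilobase overlapped. Exons of Adamts9 share 1805 bases with genes on the opposite strand. Adamts5, the main aggrecanase of cartilage in mice and a versican-cleaving enzyme in skin, had 132, 101 and 30 counts, and its level in library 3 was well below both others. Adamts17 had 44, 56 and 21 counts, Adamts10, a partner of fibrillin, 37, 31 and 54, Adamts18 24, 49 and 28, and Adamts2, the procollagen N-proteinase, 17, 54 and 46. Adamts8 and Adamts13, the von Willebrand factor protease, had means of 15 and 10.7 counts. Exons of Adamts8 share 489 bases with Gm29724 on the opposite strand, which had 32, 20 and 27 counts. The rows of Adamts3, Adamts16, Adamts19, Adamts20 and Adamtsl2 were at 0.

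Col6a3, the large chain of the microfibrillar collagen VI, had the highest level of the collagens. It had 2603, 3345 and 2830 counts, or 4.61 ± 0.557 CPM per kilobase (chromosome 1, 90765923 to 90843971, ENSMUSG00000048126), above 75.6% of measured protein-coding genes. Collagen VI is assembled from the products of Col6a1, Col6a2 and a longer chain such as that of Col6a3. Col6a2 had 24, 9 and 6 counts, or 0.0296 ± 0.0222 CPM per kilobase, and Col6a1 had no row. Per kilobase the row of Col6a3 was 75.5, 259 and 328 times that of Col6a2 in libraries 1, 2 and 3. The genes of the alternative long chains, Col6a4 and Col6a5, were at 0, and Col6a6 had 0, 12 and 2 counts. Of the 6 measured fibroblast markers, Dcn (26, 31 and 29 counts) and Fn1 (415, 874 and 468) were highest in library 2 as Col6a3 was. Fbln1 (288, 237 and 176), Fbln2 (157, 151 and 96) and Dpp4 (517, 416 and 464) were highest in library 1, and Pi16 (11, 7 and 13) in library 3. Of 13 listed pericyte and muscle markers 5 were measured, 4 of them highest in library 2 and 1 in library 1. Over all measured named genes 37.6% were highest in library 2. That list summed to 9.96, 12.9 and 10.5 CPM in libraries 1, 2 and 3. In bulk libraries a difference in the number of cells of a type and one in RNA per cell cannot be told apart. The part of fibroblasts, pericytes or muscle in the Col6a3 level was not tested.

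Col4a1 and Col4a2, the chains of the most widespread basement membrane collagen, were next in level with Col20a1. Col4a2 had 1249, 1614 and 1411 counts, or 4.06 ± 0.484 CPM per kilobase, which overlapped Col6a3. Col4a1 had 680, 905 and 692 counts, or 1.92 ± 0.303 CPM per kilobase. These genes lie head to head on chromosome 8, with annotated starts 21 bases apart and 22 exon bases in common. Both were highest in library 2, and the ratio of Col4a2 to Col4a1 per kilobase was 2.07, 2.01 and 2.30. In the protein trimer 2 Col4a1 chains go with 1 Col4a2 chain.

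The head-to-head pair Col4a3 and Col4a4, chains of a collagen IV known best from kidney, was far lower. Their starts lie 72 bases apart on chromosome 1. Col4a4 had 96, 87 and 61 counts and Col4a3 had 28, 18 and 22, at 0.145 ± 0.0328 and 0.0430 ± 0.00993 CPM per kilobase. Exons of Col4a3 share 563 bases with an opposite-strand transcript, C430014B12Rik, that had 33, 25 and 57 counts. Col4a5 and Col4a6, the chains typical of the epidermal basement membrane, had no row.

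Col20a1, a fibril-associated collagen, had 472, 515 and 485 counts, or 1.80 ± 0.0648 CPM per kilobase. Its range overlapped that of Col4a1, and 79 of its exon bases are shared with BX649560.1 on the same strand, which had 671, 772 and 593 counts. The network-forming collagens VIII followed at lower levels. Col8a1 had 201, 244 and 67 counts and Col8a2 34, 83 and 31, and for both library 2 was the highest and library 3 the lowest. Col11a2, a minor fibril chain, had 118, 134 and 89 counts.

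Fibrillar chains that go with the dermal collagens were low in their own rows. Col5a1 and Col5a2, the collagen V chains that set the width of collagen I fibrils, had 33, 65 and 15 counts and 50, 25 and 8 counts, and Col5a3 had 0, 12 and 0. Of the chains known from cartilage, Col2a1 had 9, 4 and 18 counts, Col9a3 25, 13 and 29, Col9a2 0, 0 and 13, and Col9a1 and Col11a1 were at 0. Col19a1 had 47, 18 and 32 counts and Col27a1 13, 31 and 19. Col13a1, Col14a1, Col22a1, Col24a1 and Col28a1 were at 0.

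Mmp28, Adam9 and Adamtsl5, all highly counted, lay within a factor of 1.05 over the 3 libraries. Other highly counted genes lay further apart, with factors of 1.26 for Col6a3, 1.27 for Col4a2 and 1.20 for Mmp15. The deviation of a library is its log2 CPM, with 0.5 added to each count, minus the mean of the other 2 libraries, and 2-fold is a deviation of 1. At a mean of 10 or more counts, 8 of 40 genes were at least 2-fold lower in library 3, where 6.81% of all 9965 measured named genes were. At least 2-fold higher there were 3 of 40, with a background of 3.54%; 1 of these was Mmp12, which passed the minimum through that library alone and is also counted as lower in libraries 1 and 2. In library 1 there were 4 higher and 4 lower (backgrounds 5.13% and 4.17%), and in library 2 there were 5 higher and 4 lower (backgrounds 4.84% and 2.91%). The 40 genes had fewer counts, with a median of 45 against 154 over all measured genes, and the part of low counts in these shares was not tested. At a mean of 50 or more counts 19 genes were left. Of these Adamts5, Col8a1 and Pappa were at least 2-fold lower in library 3 (3 of 19, background 2.76%), Adamts5 and Pappa higher in library 1 (background 1.49%), and Col8a1 higher in library 2 (background 0.879%). None of the 19 was 2-fold lower in library 1 (background 0.999%), lower in library 2 (background 0.328%) or higher in library 3 (background 0.611%).

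Pappa, which encodes a secreted protease that cleaves insulin-like growth factor binding proteins, had 353, 195 and 92 counts in libraries 1, 2 and 3. That is 6.72, 3.65 and 1.74 CPM, with a deviation of 1.41 in library 1 and −1.51 in library 3. Library 1 was high and library 3 low, with library 2 between. Its relative Pappa2 was at 0. One of the substrate genes of Pappa, Igfbp5, went another way with 73, 250 and 186 counts.

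Adamts5 had 2.51, 1.89 and 0.566 CPM, a deviation of −1.93 in library 3. Col8a1 had 3.83, 4.56 and 1.26 CPM, a deviation of −1.72 in library 3. For both, libraries 1 and 2 lay closer to each other than to library 3. In the same libraries the 6 measured fibroblast markers summed, with the rest of that list, to 26.9, 32.3 and 23.8 CPM, and the 6 measured hair follicle genes, with no other row in that list, to 52.8, 54.9 and 53.5 CPM. Among the latter Lgr5, a receptor of hair follicle stem cells, had 36, 59 and 9 counts, Runx1 934, 720 and 315, and Hoxc13 35, 51 and 22. Foxn1 was highest in library 3 with 1490, 1731 and 2201 counts, and Msx2 (237, 326 and 249) and Tcf7l1 (39, 49 and 40) were nearly level between libraries 1 and 3. The 21 mitosis genes measured, from a list chosen with earlier results of these data known, summed to 322, 288 and 142 CPM. Of these, 21 of 21 were lowest in library 3, where 47.6% of all measured named genes were lowest. Their part in the lower Pappa, Adamts5 and Col8a1 values was not tested.

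**Figure D3:**
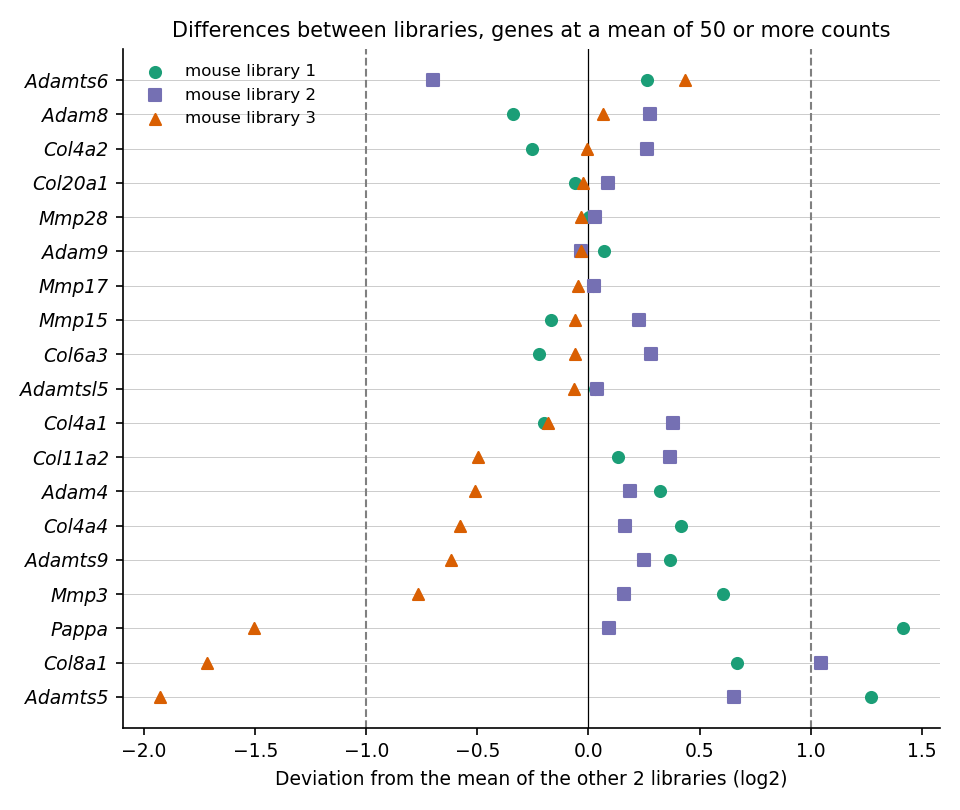
Points give each library's deviation from the mean of the other 2 on the log2 scale for the 19 genes at a mean of 50 or more counts, with dashed lines at 2-fold. Adamts5, Col8a1 and Pappa reach beyond the lower line in library 3, while the points of Mmp28, Adam9, Mmp17 and Adamtsl5 lie within 0.07 of 0.

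Over the 19 genes, library 3 was the lowest of the 3 for 11 (57.9%), near the 50.9% of all genes at that minimum. Library 2 was the highest for 11 (57.9%), with a background of 38.8%. Library 1 was the highest for 7 and the lowest for 6 (backgrounds 38.4% and 29.8%), library 2 the lowest for 2 (19.3%), and library 3 the highest for 1 (22.8%). Those highest in library 2 included Col6a3, Col4a1, Col4a2, Mmp15 and Adam8, each at a deviation of 0.23 to 0.38. The median deviation of the 40 genes was 0.073, 0.21 and −0.073 in libraries 1, 2 and 3, beside 0.047, 0.073 and −0.098 over all measured genes. Among the genes that lay below 50 counts, Col5a2 had 0.952, 0.468 and 0.151 CPM and Mmp24 0.190, 0.786 and 0.264 CPM, and these differences rest on at most 50 counts in any library.

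The spread beyond counting error was expressed as the biological coefficient of variation (BCV), fitted by edgeR over all entries that pass its filter. The fit draws each gene's value toward that of entries of like count, so it is not the spread of that gene alone. Mmp21, with 12 counts in each library, had a BCV of 0.227. The median over the 32 genes with an estimate was 0.241, against 0.20 over all 8839 named genes with one. At a mean of 50 or more counts the medians were 0.175 over 19 genes and 0.161 over all named genes at that minimum. The lowest values were 0.085 in Mmp28, 0.092 in Adamtsl5 and 0.094 in Adam9, and the highest at that minimum were 0.422 in Adamts5, 0.385 in Pappa and 0.378 in Col8a1.

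**Figure D4:**
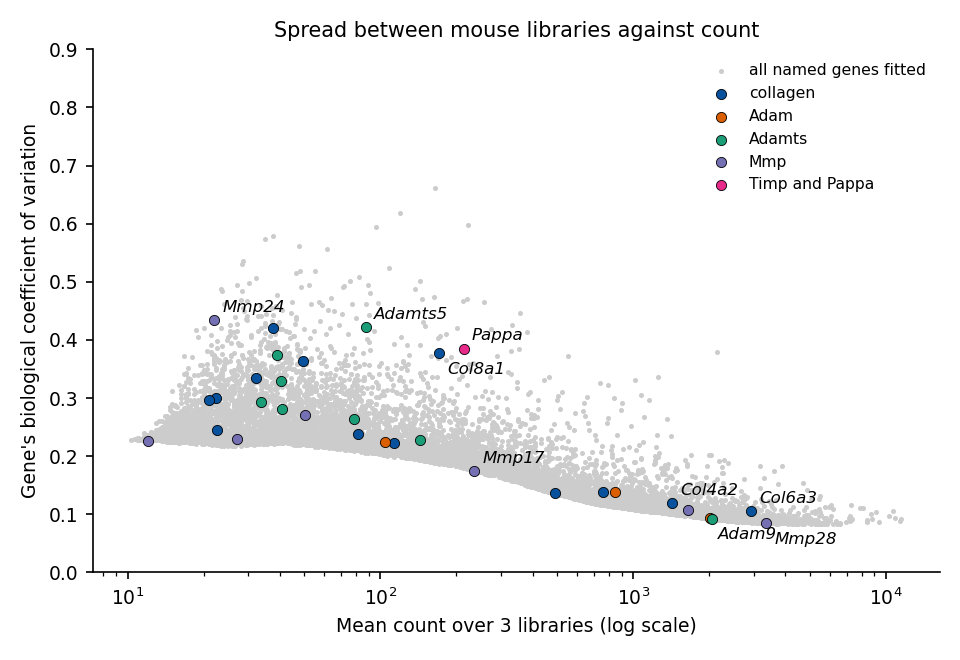
Each point is a gene, with its mean count over 3 libraries on a log axis and its BCV from edgeR on the other axis, in grey for all named genes fitted and in colour for the 32 collagen and protease genes with an estimate. Pappa, Col8a1 and Adamts5 lie above most genes of like count, and Mmp28 and Adam9 lie at the low end.

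Genes that modify, export, process or cross-link collagens were partly represented. This list and those that follow were chosen with earlier results of these data known. Of 31 listed genes of collagen biosynthesis, 19 had a row and 13 were measured. At 2-fold, Loxl2 was higher and Tll1 lower in library 3 and Loxl2 lower in library 1, all on fewer than 20 counts per library. The highest per kilobase was Plod3, a lysyl hydroxylase, at 6.87 CPM per kilobase, followed by Sec23a, a coat protein of secretory vesicles, at 6.55, and Bmp1, the procollagen C-proteinase, at 4.55. P4ha2, a prolyl hydroxylase subunit, had 604, 1080 and 820 counts and Plod1 1058, 1428 and 1190. Both were highest in library 2 and lowest in library 1. Of the 13, 7 were highest in library 2, where 37.6% of all measured named genes were, and 7 were lowest in library 3, where 47.6% were. Plod3, Bmp1, Tram2 and Loxl4 were highest in library 1 and lowest in library 3. The lysyl oxidases Lox and Loxl1, which cross-link collagen, were at 0, and Serpinh1, P4ha1 and P4hb had no row.

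Of 11 listed collagen receptors, 8 had a row and 5 were measured. None of the 5 passed 2-fold in any library, where 2.91% to 6.81% of all measured named genes did, by library and direction. Itga2 stood at 6.78 CPM per kilobase and Ddr2, a receptor tyrosine kinase for fibrillar collagen, at 3.97, with 1492, 1967 and 2384 counts. Mrc2, which takes up cleaved collagen, had 882, 783 and 671 counts, and Itgb1 and Ddr1 had no row.

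Of 31 listed regulators and substrates of the Adam sheddases, 13 had a row and 11 were measured. Pcsk7, a proprotein convertase, had 7.48 CPM per kilobase and 2179, 2057 and 1944 counts. Tspan17, a tetraspanin partner of Adam10, had 328, 339 and 331 counts. Past 2-fold in library 3, Btc, an EGF receptor ligand, was higher with 161, 219 and 396 counts, and Pcsk5 lower with 40, 35 and 0. Furin, Rhbdf1, Rhbdf2 and the Notch genes of the list had no row.

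Of 33 listed partners, substrates and inhibitors of Adamts and Mmp enzymes, 24 had a row and 12 were measured. Papln, which encodes papilin, a secreted Adamts-like matrix protein, was the highest with 3694, 3271 and 3348 counts, or 11.5 CPM per kilobase. Of the 12, 9 were lowest in library 3, where 47.6% of all measured named genes were lowest. Ltbp1 and Ltbp2, which bind fibrillin microfibrils, were at least 2-fold lower there, with 402, 478 and 163 counts and 70, 129 and 40 counts. The median deviation of the list in library 3 was −0.62, beside −0.098 over all measured genes. The membrane-anchored Mmp inhibitor Reck had 6, 0 and 0 counts, and the Adamts substrates Acan, Bcan and Ncan were at 0. Vcan, the versican gene, had 20, 37 and 20 counts.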

How the data were processed

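RNA of sorted mouse epidermal keratinocytes was sequenced after depletion of ribosomal RNA, with strand-specific libraries. The authors deposited, per library, a table of raw counts, 1 whole number for each annotated gene or assembled locus, as the labels describe them. Per the submitters' processing notes the tools were TopHat2, Bowtie2, cutadapt and FastQC, with build mm10. No source used here gives the counting program or its strand setting, so genes that overlap on opposite strands may share counts. In library 1, 641 values were 1 and 781 were 3. Naked mole-rat tables were not used here, since the reference tables pair their identifiers with no names. Symbols, positions, exon lengths and coding sequences came from GENCODE vM21. CPM used the total of all counts per library. Named genes were the 8 highest per family, the 10 largest deviations at a mean of 50 or more counts and a fixed list; others named were chosen after their values were seen. Genes and lists were chosen with earlier results of these data known. BCV was fitted with edgeR 4.0.16 (intercept only, trimmed-mean factors) in R 4.3.3; size factors came from DESeq2 1.42.0. Deviations and BCV were checked on simulated data. Other steps used Python 3.11.15, pandas 2.3.3 and numpy 2.4.6. Intervals and limits of a 0 cover counting error only. Alternatives were other minimum counts, pseudocounts, scalings, gene lengths and each library left out.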

Additional observations from a re-analysis of the deposited data

How the results depend on the processing

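Under TMM factors and DESeq2 size factors the summed levels and the levels of the named genes moved by less than 1 SD. Leaving out 1 of 3 libraries cannot move a mean by 1 SD, so that range says nothing of stability. The levels it moved most were Mmp24, from 0.413 to 0.227 CPM without library 2, Col6a2, from 0.246 to 0.141 CPM without library 1, and Col8a2, from 0.928 to 0.616 CPM without library 2. With longest transcripts as the length, the 9 highest genes were the same 9, while 29 genes changed rank, by at most 4 places. With a minimum of 50 counts 19 genes were measured, and the genes at least 2-fold higher and lower numbered 2 and 0 in library 1, 1 and 0 in library 2, and 0 and 3 in library 3. With no minimum they numbered 13 and 11, 13 and 13, and 9 and 18 of 59 (over all genes 15.7% and 17.1%, 16.1% and 16.1%, and 14.0% and 19.7%), and the median deviation of library 3 was −0.24. With a pseudocount of 5, 2 genes were lower in library 2 (1.81% over all genes). Leaving out a library gave 4 to 8 higher genes in library 1 (4.49% to 8.38% over all genes) and 5 to 9 in library 2 (5.19% to 7.68%), and median deviations of −0.026 to 0.28 in library 2 and −0.28 to −0.053 in library 3. Scaled to the counts of Ensembl rows, the median of library 3 was 0.038, beside 0.012 over all genes. The median BCV was 0.418 with no filter and 0.224 to 0.276 with a library left out. The causes of these moves were not tested. No paired analysis was possible because only 1 group was used. Rows below 50 counts limit what can be read of 21 of the 40 genes.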
